A study of Rattus norvegicus with 40 samples.

Results

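The change in the plasma miRNA profile between day 2 (D2) and day 9 (D9) after lateral fluid-percussion injury was measured in the 7 injured rats that were later found to have epilepsy (TBI+). The comparison took the 14 libraries of these rats out of 40 libraries in the series, 1 library per rat and day, and paired each rat's D9 library with its own D2 library. All animals were adult male Sprague-Dawley rats. The other libraries came from 9 injured rats without epilepsy (TBI−) and 4 sham-operated rats, which had the surgery and craniotomy but no impact, each also sampled on D2 and D9. Injury was made by a fluid pulse to the exposed dura and was set to be severe. Epilepsy was diagnosed only months after both blood samples, by video-EEG with at least 1 unprovoked seizure, so TBI+ names a later outcome and no rat was known to be epileptic when bled. Plasma came from tail-vein blood in EDTA, and several frozen aliquots of a rat's sample were pooled before RNA extraction. Of 752 miRNAs in the count matrix, 544 had at least 1 read in the TBI+ libraries, 522 of them on D2 and 502 on D9, and 480 on both days.

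miRNAs are short RNAs that guide a silencing complex to messenger RNAs, mainly through the seed, the bases near the 5′ end that pair with the target. Blood plasma carries them inside vesicles and bound to proteins. Most come from blood cells, endothelium and liver, and damaged tissues such as brain and muscle add miRNAs that healthy plasma holds at low level. Because plasma mixes all of these sources, a change in how many cells release an miRNA and a change in how much each cell releases cannot be told apart, and red blood cells that break during sampling add their own miRNAs.

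The mature sequences of the miRNAs on which the comparison turned are given first, with the seed (bases 2 to 8) in capitals. They were taken from RefSeq (GRCr8), which matched 497 of the 544 miRNAs and 95 of the 106 that passed the test described below. The first 9 fell between D2 and D9 and are known from neurons, from the large imprinted Dlk1-Dio3 locus, or from muscle and the vessel wall.
miR-129-5p: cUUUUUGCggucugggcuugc
miR-129-1-3p: aAGCCCUUaccccaaaaag
miR-129-2-3p: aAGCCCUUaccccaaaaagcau
miR-127-3p: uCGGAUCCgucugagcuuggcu
miR-323-3p: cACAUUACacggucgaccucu
miR-133a-5p: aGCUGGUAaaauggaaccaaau
miR-133b-3p: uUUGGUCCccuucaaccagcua
miR-145-5p: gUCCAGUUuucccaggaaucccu
miR-143-3p: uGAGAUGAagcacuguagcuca
The next set rose. It holds a pair from the list of liver miRNAs used below, whose tissue of origin was not tested, and both miRNAs whose CPM ranges on D2 and D9 did not overlap in the upward direction. It also holds a pair known from activated immune cells and a Dlk1-Dio3 miRNA that went against its neighbours.
miR-192-5p: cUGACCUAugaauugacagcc
miR-194-5p: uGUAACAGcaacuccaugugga
miR-34c-5p: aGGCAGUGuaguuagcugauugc
miR-92a-1-5p: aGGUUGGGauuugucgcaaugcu
miR-155-5p: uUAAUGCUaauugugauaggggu
miR-146b-5p: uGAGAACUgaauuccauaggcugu
miR-541-5p: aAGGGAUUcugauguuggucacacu
The seeds of these miRNAs differ from each other except in the pair of miR-129 3p arms, which share every base of the shorter sequence. Their summed counts lay within 5% of each other, so reads of one cannot be told from reads of the other. Each is counted as an entry of its own in the numbers below, and with near-identical miRNAs counted once 98 miRNAs passed in place of 106.

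Sequencing depth was similar on the 2 days. The TBI+ libraries held between 503869 and 2562083 reads assigned to miRNAs on D2 and between 544992 and 2083862 on D9, and the paired difference of log2 totals was −0.19 ± 0.82 (SD, n = 7 rats; two-sided exact sign-flip permutation test, p = 0.625). The number of miRNAs with a read ran from 371 to 441 on D2 (median 417) and from 368 to 421 on D9 (median 411), and it was lower on D9 in 6 of 7 rats (p = 0.0781 by the same exact test, whose smallest possible p is 0.0156). A floor of 3 reads corresponded to a mean of 2.76 CPM (reads of an miRNA scaled to a common library total, per 1000000) on D2 and 3.14 CPM on D9. The hemolysis index, log2(CPM + 1) of the red-cell miRNA miR-451-5p minus that of miR-23a-3p, was higher on D9 in 7 of 7 rats. It ran from −1.15 to 0.36 on D2 and from 0.06 to 2.39 on D9, a mean change of 1.57 ± 1.02 (SD, exact permutation p = 0.0156). The numbers in the library names fell into 3 runs whose meaning is not stated. The libraries of rats 1 to 4 were in the lowest run on D2 and the highest run on D9, and those of rats 5 to 7 were in the middle run on D2 and the lowest run on D9, so no run held both days of the same TBI+ rat.

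Between D2 and D9, 106 of the 544 miRNAs had a Benjamini-Hochberg adjusted p under 0.05 in edgeR's quasi-likelihood fit with the rat as a block, or 19.5% of those tested. Of these, 68 fell (12.5%) and 38 rose (6.99%), while 170 had an unadjusted p under 0.05. The falls were the larger changes: 51 of the 68 were of at least 1 log2 unit and 23 of at least 2, against 18 and 2 of the 38 rises. The 68 ranged from −5.31 to −0.56 on the log2 scale (median −1.48) and the 38 from 0.63 to 2.43 (median 0.96). The median change over all 544 miRNAs was 0.02. Scaled to miR-28-3p in place of edgeR's TMM factors, 53 miRNAs passed, of which 20.8% rose, against 35.8% of the 106. Of the 68, 49 had a lower CPM on D9 in 7 of 7 rats and 11 in 6, and of the 38, 11 were higher in 7 of 7 rats and 17 in 6. The CPM ranges of the 2 days did not overlap for 34 miRNAs that were lower on D9 (6.25% of 544) and for 2 that were higher (0.368%).

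**Figure D1:**
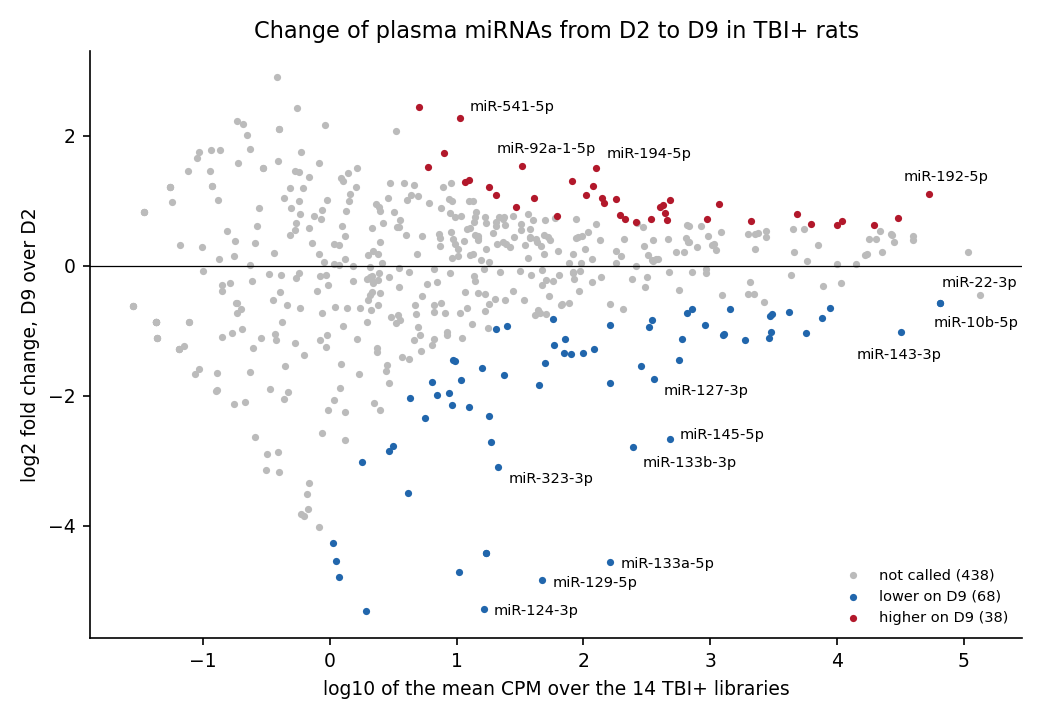
Log2 change from D2 to D9 in the 7 TBI+ rats (y axis) against abundance (x axis, log10 of the mean CPM over the 14 libraries); each point is 1 miRNA, coloured by whether it passed the edgeR test at an adjusted p under 0.05. The 68 that fell reach −5.31, and the 38 that rose stay at or under 2.43.

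The 4 most abundant miRNAs moved by 0.57 log2 units at most. miR-22-3p took 15.5% of reads on D2 and 11.1% on D9 and did not pass the test (log2 change −0.45 ± 0.20 SE, adjusted p = 0.0852). miR-92a-3p, abundant in red blood cells, took 10.2% and then 11.4% (0.21 ± 0.19, adjusted p = 0.518). The HOX-cluster miRNAs miR-10a-5p and miR-10b-5p, with 7.92% and 7.91% of reads on D2 and 5.13% and 5.15% on D9, fell by 0.57 and 0.56 (adjusted p = 0.0268 and 0.0292), but their counts differed by less than 5% and could be split reads of either. The steepest changes lay far below this level.

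Some neural miRNAs fell, a few of them nearly to 0. Of 34 tested miRNAs on the list of brain-enriched miRNAs, 12 fell, none rose, and 22 did not pass, beside 12.5% falls among all miRNAs tested. The falls that passed were 3 with the hemolysis index as a covariate and 7 with the runs of library numbers as one. The median change of the 34 was −0.87, or −0.59 with miRNAs that had no read on one day set to their bound, against 0.02 over all miRNAs tested. miR-124-3p, the miRNA most typical of neurons, lay between 14.6 and 71.7 CPM on D2 (median 29.3). On D9 it was at 0 in 5 of the 7 rats and at most 2.37 CPM in the others. The 2 days did not overlap in any rat, and the fitted change was −5.27 ± 0.55 (adjusted p = 1.33e-19), resting on 312 reads on D2 and 6 on D9. miR-124-5p, from the other arm of the hairpin, had a median of 19.9 CPM on D2 and 0 on D9 (−4.70 ± 0.62, adjusted p = 2.42e-12), and only the D9 library of rat 4, at 11.0 CPM, reached into the D2 range. Every count of both arms was a multiple of 3, so a count of 3 was the smallest step above 0, and the p-values treat those reads as separate.

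miR-129-5p, which is made in neurons from 2 genes, at chr3:100657448-100657468 on the minus strand and chr4:58589716-58589736 on the plus strand (GRCr8), lay between 47.6 and 161 CPM on D2 (median 71.0). On D9 it lay between 0 and 9.81 CPM (median 3.67). The lowest D2 library therefore stood above the highest D9 library, and the mean went from 90.9 ± 40.9 to 3.96 ± 3.75 CPM (SD, n = 7; log2 change −4.83 ± 0.39, adjusted p = 8.83e-32). Its counts were all even numbers. The 3p arm behaved alike, with a median of 28.9 CPM on D2 and 1.54 CPM on D9 for miR-129-1-3p (−4.42 ± 0.49, adjusted p = 3.79e-17).

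Other neural miRNAs fell less. miR-153-3p, which acts on synaptic vesicle genes, went from a median of 10.9 to 3.16 CPM (−2.14 ± 0.51, adjusted p = 0.000475) and was lower in 7 of 7 rats. miR-212-3p, an activity-induced miRNA of neurons, went from 33.5 to 15.4 CPM (−0.93 ± 0.34, adjusted p = 0.0342), whereas its cluster partner miR-132-3p, at 52.1 and 45.3 CPM, did not pass (−0.46 ± 0.29, adjusted p = 0.281). The abundant brain miRNAs miR-138-5p and miR-128-3p also passed, with medians of 1091 and 495 CPM for miR-138-5p (−0.92 ± 0.25, adjusted p = 0.00224). miR-128-3p lay between 5813 and 15111 CPM on D2 and between 2417 and 9726 CPM on D9 (−0.80 ± 0.24, adjusted p = 0.00697). It fell in rats 1 to 4, whose D9 libraries were in the highest run of numbers (−1.70), and was higher on D9 in rats 5 to 7, whose D9 libraries were in the lowest run (0.43, adjusted p = 0.446). Its fitted change was −0.16 when the runs were a covariate over all 40 libraries (adjusted p = 0.929), and the part of the runs in its change was not tested. The summed CPM of the neural list ran from 7071 to 16732 on D2 and from 3121 to 11055 on D9, and most of it was miR-128-3p. Brain miRNAs miR-9a-3p and miR-434-3p had no reads in any of the 40 libraries, and miR-9a-5p had a read in only 1 of the 14 TBI+ libraries. How reads of miRNAs with several gene copies were counted is not given in the sources used here, so no reads, here and for the muscle and liver miRNAs below, does not show that an miRNA was absent from plasma.

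**Figure D2:**
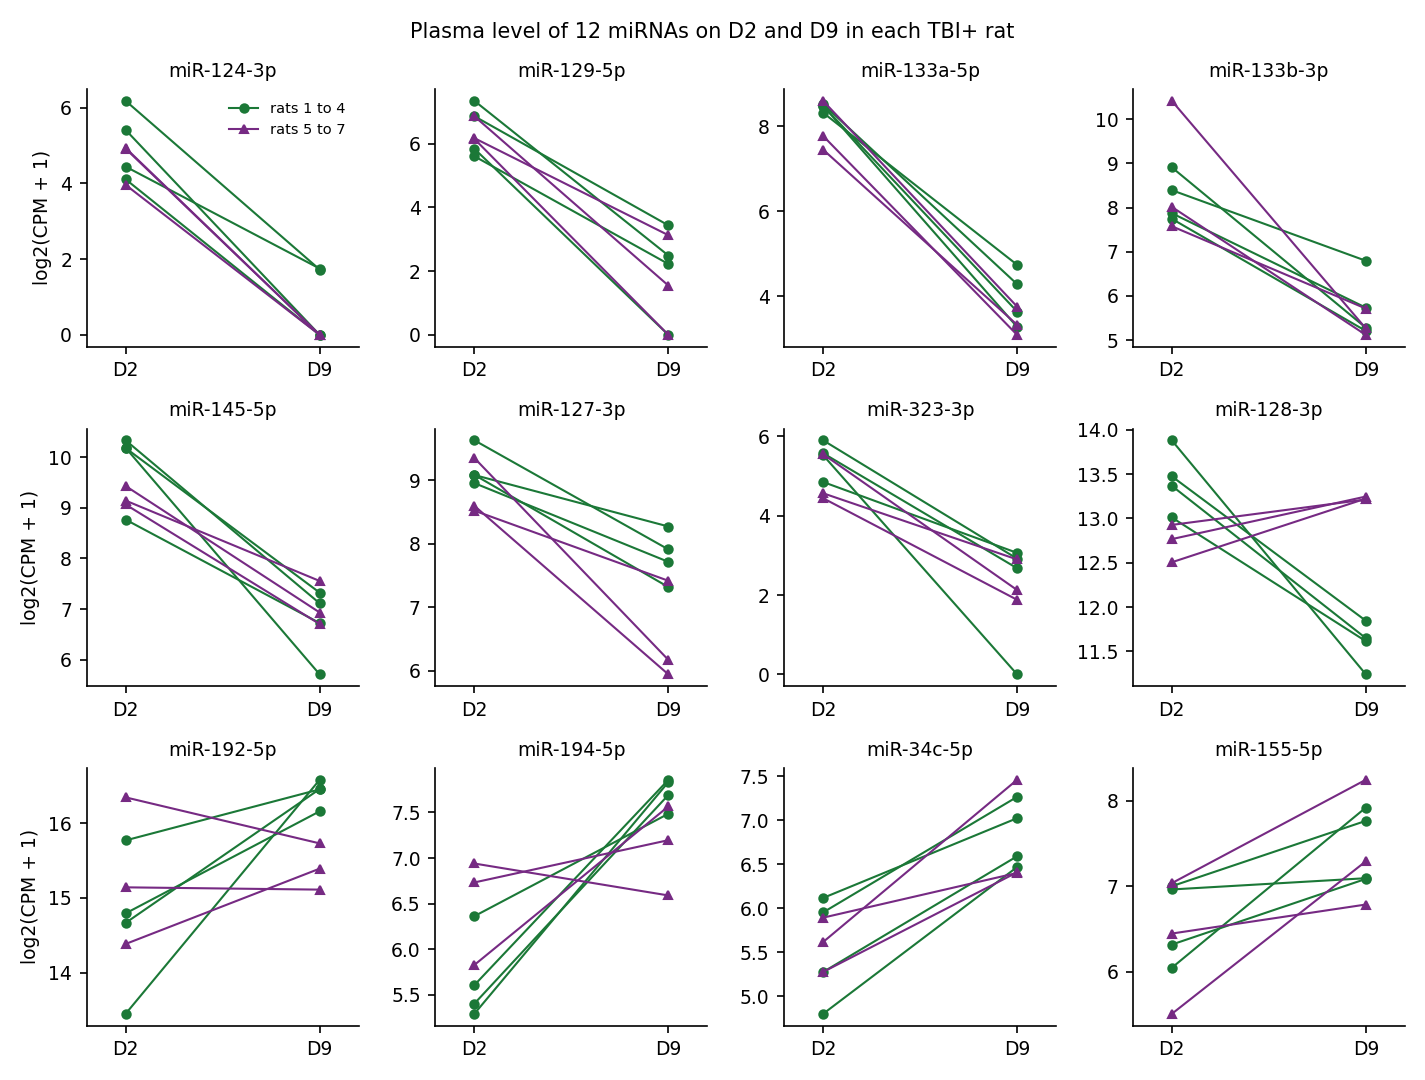
Level of 12 miRNAs in each TBI+ rat on D2 and D9 (y axis, log2(CPM + 1), with a range of its own in each panel); each line joins the 2 libraries of 1 rat, with circles for rats 1 to 4 and triangles for rats 5 to 7, whose libraries carried other number runs. miR-124-3p, miR-129-5p, miR-133a-5p and miR-145-5p drop in every rat without overlap, while miR-128-3p drops in rats 1 to 4 and not in rats 5 to 7.

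The Dlk1-Dio3 miRNAs, made from a maternally expressed imprinted cluster on rat chromosome 6 that is active in brain and other tissues, held calls in both directions. Of 62 tested members 12 fell, 2 rose and 48 did not pass, beside 12.5% falls and 6.99% rises among all miRNAs, so most members did not pass. The median change was −0.72, or −0.40 with the bounds. With the hemolysis index as a covariate it was −0.13, and 1 member fell and 2 rose. Their summed level ran from 838 to 1680 CPM on D2 and from 231 to 758 CPM on D9, so the ranges did not overlap. miR-127-3p (chr6:134328510-134328531), antisense to the retrotransposon-derived gene Rtl1, was the most abundant member, with 367 to 792 CPM on D2 (median 542) and 60.5 to 308 CPM on D9 (median 170). Every D9 library was below every D2 library (−1.73 ± 0.26, adjusted p = 2.57e-09). miR-323-3p (chr6:134546994-134547014) went from a median of 45.0 to 5.38 CPM, again without overlap (−3.09 ± 0.41, adjusted p = 2.36e-12).

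The other falls in the locus included miR-668 (median 26.8 and 3.36 CPM, −2.71 ± 0.41), miR-667-3p (30.4 and 7.34 CPM, −2.31 ± 0.41) and miR-369-3p (19.8 and 4.61 CPM, −2.17 ± 0.45). miR-410-3p and miR-136-3p were lower in 7 of 7 rats too, but their ranges overlapped (−1.35 ± 0.29 and −1.21 ± 0.29, adjusted p = 5.93e-05 and 0.000532). Against them, miR-541-5p (chr6:134578434-134578458) rose in 7 of 7 rats, from a median of 3.12 to 17.7 CPM (2.27 ± 0.48, adjusted p = 5.78e-05). miR-540-3p, at a median of 0.597 CPM on D2 and 6.44 CPM on D9, rose by 2.43 ± 0.71 (adjusted p = 0.00557). Both of these were near the floor of 3 reads on D2. The stretch from Mir379 to Mir410 (chr6:134543460-134579828) held 43 tested miRNAs, of which 8 fell and only miR-541-5p, close to its 3′ end, rose. The stretch from Mir770 to Mir136 (chr6:134298094-134331404) held 16, of which 3 fell and only miR-540-3p rose. The shares among all miRNAs tested were 12.5% falls and 6.99% rises. Of 46 stretches of the genome with neighbouring hairpins less than 10000 bases apart, only 12 held at least 2 called miRNAs and so could differ in direction. Calls in both directions were found in these 2 alone, which also held the most tested miRNAs.

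Some muscle and vessel-wall miRNAs fell as well. Of 9 tested miRNAs of the muscle list 4 fell and none rose, beside 12.5% falls among all miRNAs tested. The median was −1.63, or −0.58 with the bounds, and 1 fall passed with the hemolysis covariate and 3 with the runs. miR-133a-5p (chr18:2157923-2157944, minus strand), from striated muscle, had the lowest adjusted p of all miRNAs, with 174 to 388 CPM on D2 (median 358) and 7.50 to 25.7 CPM on D9 (median 11.4). The mean went from 312 ± 82.6 to 13.3 ± 6.55 CPM (SD, n = 7), which is 23.4-fold lower and without overlap (−4.55 ± 0.31, adjusted p = 1.25e-43). miR-133b-3p, of skeletal muscle, went from a median of 258 to 37.9 CPM, again without overlap (−2.79 ± 0.29, adjusted p = 4.47e-20), although rat 7 stood far above the others on D2 at 1366 CPM. The heart miRNA miR-208a-3p, with 1.17 to 7.76 CPM on D2, had no read in any D9 library, at least 1.23-fold lower (adjusted p = 0.00128). miR-208b-3p went from a mean of 13.9 ± 11.0 to 3.54 ± 3.13 CPM (SD) (−1.96 ± 0.54, adjusted p = 0.00291). The defining muscle miRNAs miR-1-3p and miR-133a-3p had no reads in any library, and miR-206-3p had reads in only 2 of the 14 TBI+ libraries, so the list rests on its other members.

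Of 5 tested miRNAs of the vessel-wall list 3 fell, beside 12.5% falls among all miRNAs tested. All 3 came from the hairpins Mir145 and Mir143 (chr18:57369997-57371428), which serve smooth muscle cells. miR-145-5p lay between 435 and 1289 CPM on D2 (median 689) and between 51.3 and 187 CPM on D9 (median 121). Its ranges did not overlap, and the mean fell from 834 ± 357 to 123 ± 43.7 CPM (SD, n = 7; −2.66 ± 0.27, adjusted p = 4.07e-20). Its other arm, miR-145-3p, fell by 1.80 ± 0.27 (adjusted p = 2.47e-09), and the far more abundant miR-143-3p went from a median of 46458 to 16837 CPM (−1.01 ± 0.21, adjusted p = 4.46e-05). Both were lower in 7 of 7 rats. The days overlapped for miR-145-3p through the D9 library of rat 1 alone, at 173 CPM, and the same library was the highest of D9 for miR-143-3p, at 53714 CPM. The endothelial miRNA miR-126a-3p did not pass (0.48 ± 0.24, adjusted p = 0.147).

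Some miRNAs of the liver list rose. Of 5 tested 3 rose and none fell, beside 6.99% rises among all miRNAs tested. The median change was 1.10, and 0 passed with the hemolysis covariate and 1 with the runs. miR-192-5p and miR-194-5p share a hairpin cluster (chr1:212994038-212994296), and miR-192-5p, the fifth most abundant miRNA over the 14 libraries, went from 3.75% to 6.91% of reads. It lay between 11192 and 83226 CPM on D2 (median 28396) and between 35405 and 97988 CPM on D9 (median 73148), and was higher in 5 of 7 rats (1.10 ± 0.22, adjusted p = 1.3e-05). miR-194-5p lay between 38.1 and 122 CPM on D2 (median 55.7) and between 95.3 and 231 CPM on D9 (median 189), higher in 6 of 7 rats (1.51 ± 0.28, adjusted p = 2.95e-06). The changes were 1.88 and 2.20 in rats 1 to 4. In rats 5 to 7 they were 0.05 and 0.55 and did not pass (adjusted p = 0.930 and 0.466), and the difference between these sets of rats was not tested. The hepatocyte miRNA miR-802-5p, which is on none of the lists, had the same form, with a median of 51.6 and 153 CPM but a rise in only 4 of 7 rats (1.22 ± 0.29, adjusted p = 0.00048). The defining liver miRNA, miR-122-5p, had no reads in any library, and miR-122-3p did not pass (0.08).

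**Figure D3:**
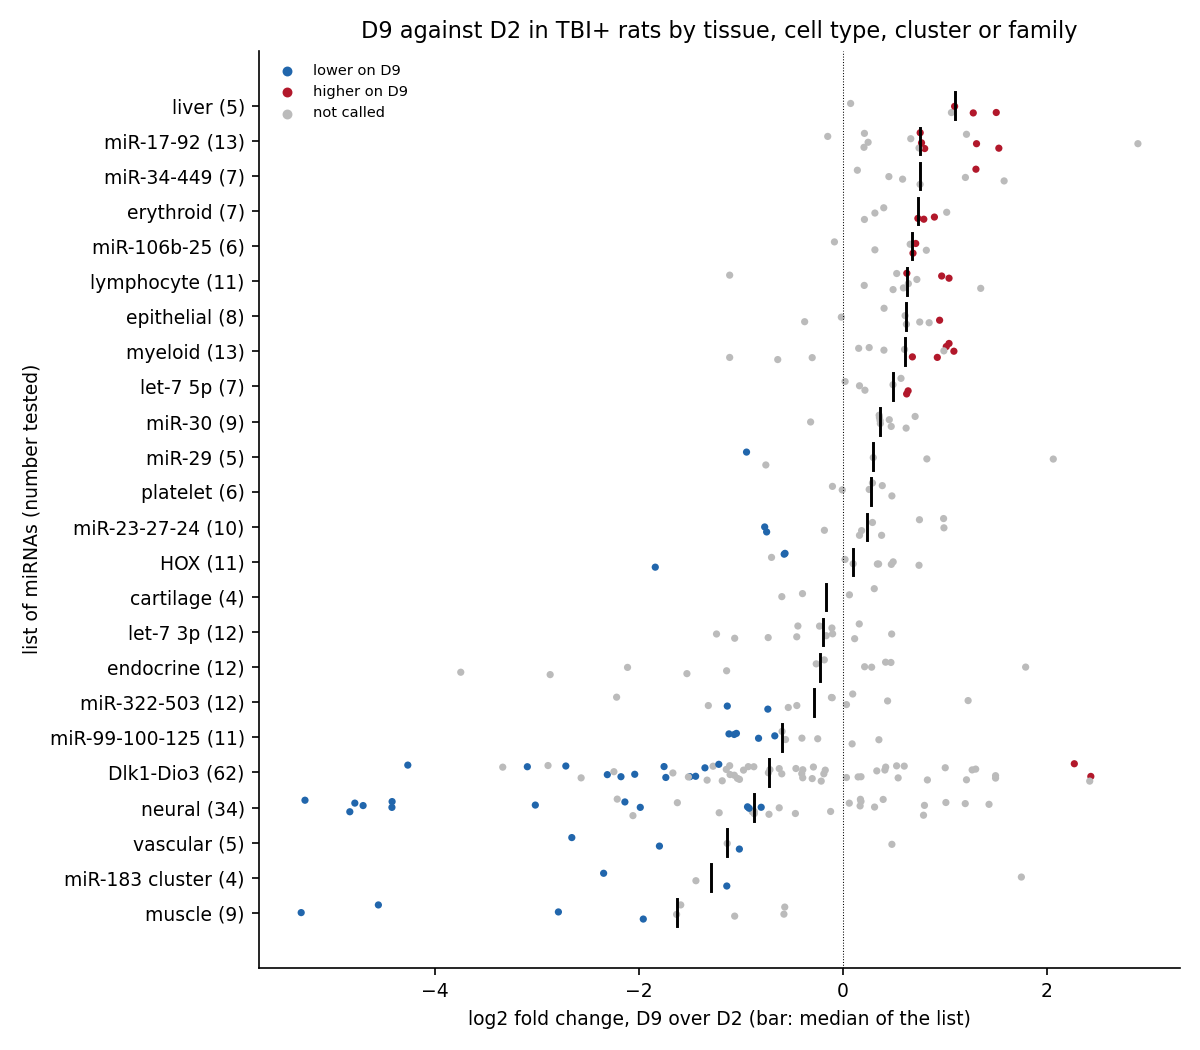
Log2 change from D2 to D9 in TBI+ rats (x axis) for the tested miRNAs of 24 lists (rows, sorted by their median, drawn as a bar); each point is 1 miRNA, with those that passed the edgeR test coloured by direction. The medians drawn run from −1.63 for the muscle list to 1.10 for the liver list; with miRNAs that had no read on one day set to their bound, those of the muscle and neural lists would be −0.58 and −0.59, so the order of the rows depends on such miRNAs.

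miRNAs of blood cells were higher on D9 where they moved. On the lists of lymphocyte, myeloid, erythroid and platelet miRNAs, 3 of 11, 5 of 13, 3 of 7 and 0 of 6 rose, and none fell, beside 6.99% rises among all miRNAs. The medians were 0.63, 0.61, 0.74 and 0.28. With the runs of library numbers as a covariate 1 lymphocyte, 0 myeloid and 3 erythroid miRNAs passed as rises, and in rats 5 to 7 alone 1, 1 and 2. With the hemolysis index as a covariate 1, 2 and 0 passed, and the myeloid median was −0.12. miR-155-5p, induced in activated lymphocytes and macrophages and counted on both lists, went from a mean of 93.7 ± 33.8 to 185 ± 70.1 CPM (SD, n = 7) and was higher in 7 of 7 rats (1.04 ± 0.27, adjusted p = 0.00117). miR-146b-5p, which damps Toll-like receptor signalling, went from a median of 321 to 685 CPM (1.02 ± 0.25, adjusted p = 0.000741) and miR-147, induced in macrophages, from a median of 63.5 to 153 CPM (1.09 ± 0.27, adjusted p = 0.000822). Both were higher in 7 of 7 rats. Smaller rises were found for miR-142-3p, common to blood cells (277 and 474 CPM, 0.93 ± 0.26), miR-150-5p, of mature lymphocytes (16589 and 20518 CPM, 0.63 ± 0.22) and miR-21-5p (8760 and 13906 CPM, 0.68 ± 0.22). miR-150-5p was higher in only 5 of 7 rats and did not pass in 14 of the 23 other settings tried. The neutrophil and platelet miRNA miR-223-3p did not pass (0.26 ± 0.24, adjusted p = 0.518).

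The erythroid members that rose were miR-451-5p, with medians of 3332 and 5311 CPM (0.80 ± 0.24, adjusted p = 0.00649), miR-144-3p of the same cluster, with 278 and 525 CPM (0.90 ± 0.26, adjusted p = 0.00545), and miR-16-5p, with 20922 and 35696 CPM (0.74 ± 0.21, adjusted p = 0.00453). All of these ranges overlapped between days. The summed level of the 7 members ran from 102034 to 159382 CPM on D2 and from 139211 to 232170 CPM on D9, and none of the members was at 0. miR-451-5p is the upper term of the hemolysis index, so its rise and that of the index are not independent.

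Among 31 seeds carried by at least 2 of the matched miRNAs with a mean of 10 CPM or more, none held members that passed in both directions. Only 7 of the 31 held at least 2 members that passed, so the others could not. Among the 7 were the 3p pair of miR-129 and miR-23a-3p with miR-23b-3p, whose counts lay within 5% of each other. The miR-17 seed AAAGUGC was shared by 5 miRNAs that promote cell division, and it is shown here because 4 of them rose.
miR-17-5p: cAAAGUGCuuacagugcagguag
miR-20a-5p: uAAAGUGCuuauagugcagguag
miR-93-5p: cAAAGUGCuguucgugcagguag
miR-106b-5p: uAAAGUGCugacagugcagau
miR-20b-5p: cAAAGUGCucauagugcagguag
The rises were 0.80 for miR-17-5p, 0.77 for miR-20a-5p, 0.69 for miR-93-5p and 0.72 for miR-106b-5p. miR-20b-5p, the least abundant at a median of 9.52 CPM on D2, had a like value that did not pass (0.67 ± 0.41, adjusted p = 0.262). Of the 12 tested miRNAs encoded from Mir17 to Mir92a1 (chr15:98587861-98588622), 5 rose and none fell, beside 6.99% rises among all miRNAs tested. On the miR-17-92 list, with 13 tested, no rise passed with the hemolysis covariate and 2 did with the library-number runs. The largest of the 5 rises was miR-92a-1-5p (chr15:98588565-98588587), which lay between 8.66 and 37.7 CPM on D2 and between 39.2 and 62.4 CPM on D9 without overlap (1.53 ± 0.33, adjusted p = 6.6e-05). The other miRNA that rose without overlap was miR-34c-5p (chr8:60306133-60306155, minus strand), of the p53-induced miR-34 family. It lay between 26.8 and 68.4 CPM on D2 and between 83.5 and 175 CPM on D9 (1.31 ± 0.28, adjusted p = 6.61e-05). With the hemolysis covariate or with the library-number runs it did not pass.

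Families that fell differ from these in their seeds, which are shown for comparison.
miR-99b-5p: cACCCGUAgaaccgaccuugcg
miR-100-5p: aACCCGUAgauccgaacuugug
miR-152-3p: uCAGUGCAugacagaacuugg
miR-148b-3p: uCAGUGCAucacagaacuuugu
miR-103-3p: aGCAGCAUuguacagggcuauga
miR-107-3p: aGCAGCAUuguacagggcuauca
miR-23a-3p: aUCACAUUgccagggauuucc
Of 11 tested miRNAs of the miR-99, miR-100 and miR-125 families 5 fell and none rose (median −0.59), beside 12.5% falls among all miRNAs tested. No fall passed with the hemolysis covariate (median −0.18) or with the library-number runs. In rats 1 to 4 alone 2 fell, and in rats 5 to 7 alone 6. miR-99b-5p went from a median of 3402 to 1913 CPM without overlap (−1.11 ± 0.24, adjusted p = 5.94e-05). miR-152-3p and miR-148b-3p, which target the DNA methyltransferase gene Dnmt1, fell by 1.44 ± 0.25 and 1.13 ± 0.25 (adjusted p = 3.83e-07 and 0.000101), with no overlap for either. miR-148a-3p has the same seed, and its ranges, 5845 to 13046 CPM on D2 and 8010 to 12269 CPM on D9, overlapped almost wholly (0.02 ± 0.22, adjusted p = 0.947). miR-103-3p and miR-107-3p, linked to insulin sensitivity, fell by 0.65 and 0.72, and miR-23a-3p, the reference of the hemolysis index, fell by 0.75 ± 0.23 (adjusted p = 0.00972), so part of the index's rise was its denominator. The photoreceptor and inner-ear cluster of miR-182 and miR-96-5p fell by 1.14 ± 0.26 and 2.34 ± 0.64, but for miR-182 the change was −0.15 in rats 1 to 4 and −2.49 in rats 5 to 7.

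The same change was measured in the 9 TBI− rats, which share no library with TBI+. There 100 of 558 miRNAs passed (17.9%), 65 lower and 35 higher. Of the 68 miRNAs that fell in TBI+, 65 had the same sign and 47 also passed in TBI−, which is 69.1% of the TBI+ falls and 72.3% of the TBI− falls. Of the 38 that rose, 35 had the same sign and 14 also passed, which is 36.8% and 40% of the 2 lists. Across the 266 miRNAs with a mean of at least 10 CPM the log2 changes of both groups correlated with r = 0.885 and rho = 0.744, a description over miRNAs that share libraries and total. The change of miR-124-3p was −5.58 in TBI− beside −5.27 in TBI+, and that of miR-129-5p was −4.48 beside −4.83. miR-127-3p, miR-133a-5p and miR-145-5p fell by 1.08, 3.93 and 2.26. On the liver list 0 of 5 passed in TBI−, with a median of 0.30, and miR-128-3p was at 0.09 there. The TBI− libraries lay in the middle and highest runs of numbers on D2 and in the lowest and middle runs on D9. No TBI− rat had the layout of TBI+ rats 1 to 4, so outcome and runs cannot be told apart in these values. The difference of the day change between TBI+ and TBI− was tested directly for 572 miRNAs as an interaction. None passed in edgeR or in DESeq2 (0%), 33 had an unadjusted p under 0.05 in edgeR, and the lowest adjusted p was 0.370.

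**Figure D4:**
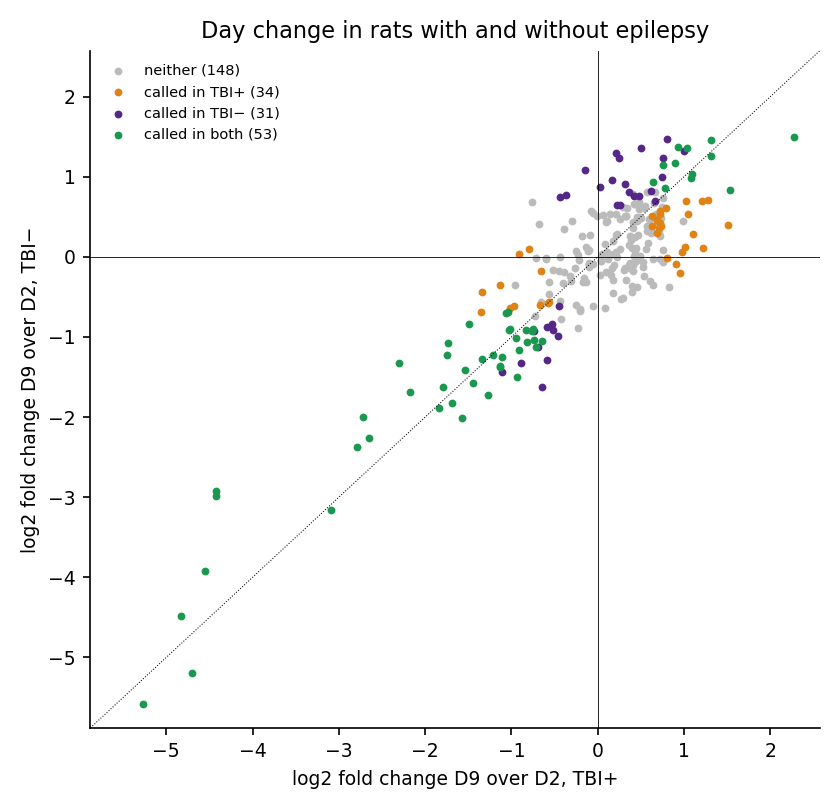
Log2 change from D2 to D9 in TBI− rats (y axis) against TBI+ rats (x axis) for the 266 miRNAs with a mean of at least 10 CPM; each point is 1 miRNA, coloured by the group in which it passed the edgeR test, and the line marks equal change. 53 passed in both groups, 34 only in TBI+ and 31 only in TBI−, and none passed the test of the difference.

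In the 4 sham rats, 11 of 491 miRNAs passed (2.24%), 2 higher and 9 lower, and 58 had an unadjusted p under 0.05. The D9 libraries of sham rats held only 140636 to 358202 reads, which limits this comparison, and sham libraries lay in the same runs of numbers as those of TBI+ rats 1 to 4. The change in TBI+ differed from that in sham rats for 5 of 556 miRNAs (0.899%), and for 2, 11, 1 and 8 when sham rats 1, 2, 3 and 4 were left out in turn. DESeq2 gave 2, and a low-count filter or the runs of library numbers as a covariate gave 0. miR-127-3p was at 113, 316, 225 and 304 CPM in the sham D2 libraries and at 491, 148, 633 and 226 CPM on D9, against the fall in every TBI+ rat (difference −2.50 ± 0.55, adjusted p = 0.00301). Other Dlk1-Dio3 miRNAs that fell in TBI+ did not all go with it. In sham rats miR-323-3p was at −2.13, miR-667-3p at −1.76, miR-136-3p at −1.20, miR-668 at −0.94, miR-369-3p at −0.42 and miR-410-3p at 0.22. None of these sham changes passed, and none differed from TBI+ by the interaction test. miR-129-5p was at 0, 33.6, 11.9 and 10.5 CPM on D2 and at 14.2, 0, 19.8 and 0 CPM on D9 in sham rats, all below the TBI+ D2 libraries (difference −4.28 ± 1.02, adjusted p = 0.00511). Its sham D9 values stood on 2, 0, 4 and 0 reads, around the floor of 3 reads, so a fall in sham rats could hardly be measured. The 3p entry miR-129-1-3p changed by −2.49 ± 2.15 in sham rats, and its difference from TBI+ did not pass (−2.15 ± 2.04). miR-124-3p had no read in any sham library, so its change could not be compared. miR-341, encoded on chromosome 6 within the span of the Dlk1-Dio3 hairpins (chr6:134347871-134347891), fell in TBI+ from between 82.4 and 211 CPM on D2 to between 23.0 and 106 CPM on D9, while the sham change was 0.83 (difference −2.41 ± 0.57, adjusted p = 0.00511).

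miR-133a-5p fell in sham rats too, from 50.5, 229, 217 and 434 CPM to 78.2, 6.17, 74.2 and 30.7 CPM (−2.28 ± 0.64, adjusted p = 0.0273), and fell further in TBI+ (difference −2.56 ± 0.63, adjusted p = 0.00612). miR-185-5p differed through a rise in sham rats (4.61 ± 1.15), while its TBI+ change of 1.08 ± 0.63 did not pass, and its highest TBI+ library held 8.68 CPM. miR-145-5p and miR-152-3p fell in sham rats by 2.09 and 1.82 (adjusted p = 0.0184 and 0.027), close to their TBI+ falls of 2.66 and 1.44. The sham change of miR-192-5p, 0.90, and that of miR-194-5p, 1.28, did not pass but lay near the TBI+ values of 1.10 and 1.51.

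The hemolysis index rose in all 3 groups, by 1.53 ± 0.84 in TBI− (9 of 9 rats, exact permutation p = 0.00391) and by 1.65 ± 0.80 in sham rats (4 of 4, exact p = 0.125, the smallest that 4 pairs allow). With the index as a covariate beside the rat, 20 miRNAs passed in TBI+, 12 of them among the 106. As the index rose in every rat, this fit separates it from the day only by how far it rose. Of the 68 that fell, 63 kept their sign in that fit and 8 passed, and of the 38 that rose, 25 and 4. miR-133a-5p (−4.26, adjusted p = 0.000125), miR-145-5p (−2.78, adjusted p = 0.0233) and miR-129-1-3p (−5.57, adjusted p = 0.0308) were among those that passed. miR-124-3p, at −4.98 (adjusted p = 0.111), and miR-129-5p, at −3.63 beside −4.83 without the covariate (adjusted p = 0.0515), did not pass. Over the 23 other settings tried, the change of miR-124-3p ran from −8.63 to −4.43. That of miR-124-5p, its other arm, ran from −8.04 to −0.46, and it did not pass in 1 of them. The changes of miR-16-5p and miR-93-5p turned negative, at −0.09 and −0.31, and none of the erythroid rises passed. The part of red-cell RNA in the other changes was not tested beyond this covariate.

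**Figure D5:**
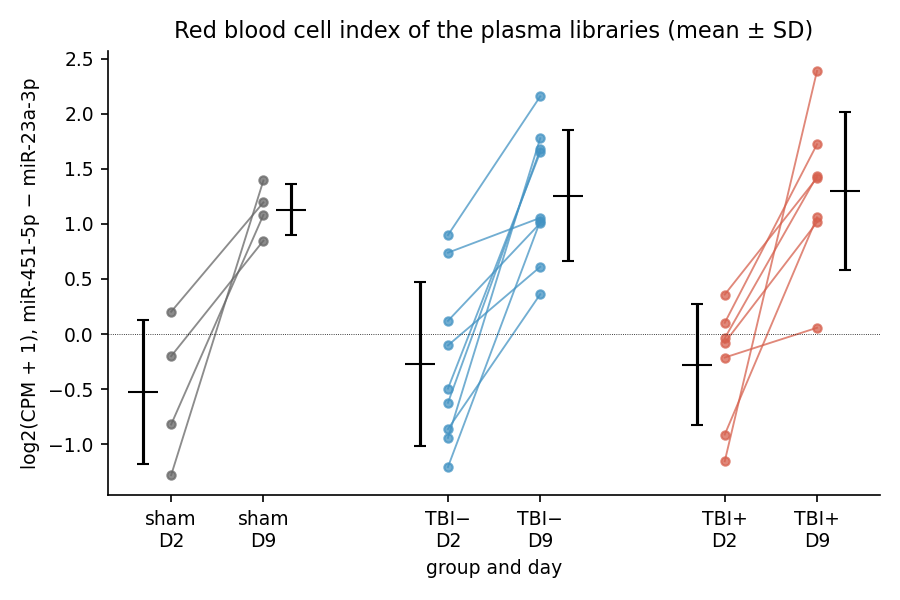
Hemolysis index (y axis, log2(CPM + 1) of miR-451-5p minus that of miR-23a-3p) on D2 and D9 in sham, TBI− and TBI+ rats; each thin line is 1 rat, and black points with bars are the mean ± SD. The index rises in each of the 7 TBI+ rats, by 1.57 ± 1.02 on average, and by like amounts in the other groups.

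In rats 1 to 4 and rats 5 to 7, fitted apart, 67 of the 68 falls and 37 of the 38 rises had the same sign in both. The 106 were called from these same rats, so this count was largely set by the call. Across 266 miRNAs the 2 sets of changes correlated with r = 0.731 and rho = 0.538. In the fit over all 40 libraries with the runs as a covariate, every one of the 106 kept its sign, and 38 of the 68 and 11 of the 38 passed. That fit includes the libraries that gave the calls. In the libraries of the lowest run alone, which set D9 of rats 5 to 7 against D2 of rats 1 to 4, 70 miRNAs passed, 62 of them lower.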

How the data were processed

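Small RNA was sequenced from plasma of 20 rats on D2 and D9 (40 libraries, TruSeq Small RNA kit, Illumina HiSeq, runs merged per sample by the authors). Per the submitters' notes, reads were trimmed with Trimmomatic 0.36, checked with FastQC 11.8, aligned with Bowtie2 to the rat genome Rno6 and counted over miRBase miRNAs with featureCounts. The deposited values are whole-number read counts, not normalized. Fold changes came from edgeR 4.0.16 (R 4.3.3) quasi-likelihood fits with TMM scaling, the rat as a block, all miRNAs with a read, and Benjamini-Hochberg adjustment over all of them. The edgeR fit estimated 1 trended spread for all miRNAs. CPM are counts scaled to 1000000 miRNA reads per library. The ± after a log2 change is its standard error. Single values were tested by exact sign-flip permutation of rats (two-sided; Python 3.11.15, numpy 2.4.6, scipy 1.17.1, pandas 2.3.3, matplotlib 3.10.9).

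The rat number in the sample titles pairs the 2 days. Deviations of the same rat's libraries from their day means correlated from −0.24 to 0.38 (median −0.12, 266 miRNAs), and 2 of 7 libraries correlated best with their own rat. Samples were grouped by the labels' injury, outcome and day. Named miRNAs were the 10 called in each direction with the lowest adjusted p, the 5 most abundant, the 2 most abundant of each list, those the study measured by PCR, and the 3 with the lowest adjusted p in each interaction; further list members and neighbours were named after their values were seen. The comparison and lists were chosen with earlier results of these data known. Alternatives were DESeq2 1.42.0, other scalings, filters, covariates and subsets of rats, and, added after seeing the data, robust fitting and limma-voom. The fits were tested on simulated data in which all miRNAs had the same spread and rats and runs did not differ. Those data therefore cannot show how the p-values hold where spreads differ. Where an miRNA had no read on one day, its fold is a bound against 3 reads per library. Floors cover counting error only. The edgeR p-values rest on the trended spread shared by all miRNAs, and not on each miRNA's own spread between rats. Exact permutation p-values rest on the paired differences of these rats.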

Additional observations from a re-analysis of the deposited data

Results flagged for a closer look

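Among the 84 sets of 7 TBI+ libraries examined (one miRNA or measure on one day), 13 had a library whose gap to its nearest neighbour was large for the range of the set. Chance flags about 1 in 20 such sets where they are independent and normally distributed. These sets share libraries and some share reads, so their number cannot be set against that rate. On D2, rat 7 stood apart with 1366 CPM of miR-133b-3p (median 258), 6949 CPM of miR-182 (median 1617) and 26.1 CPM of miR-96-5p (median 8.36). Rat 1 had 71.7 CPM of miR-129-1-3p and 73.4 CPM of miR-129-2-3p (median 28.9 for both, which share their reads), and 1969 CPM of miR-138-5p (median 1091). Rat 6 had 4062 CPM of miR-205 (median 402), an miRNA of squamous epithelium such as skin, and 7.30 CPM of miR-541-5p (median 3.12). The D2 library of rat 4 was low, with 371 miRNAs detected (median 417).

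On D9, rat 4 was high for miR-133b-3p, at 110 CPM (median 37.9), and for miR-124-5p, at 11.0 CPM with 0 in the other rats. Rat 1 was high for both miR-145-3p, at 173 CPM (median 60.0), and miR-143-3p, at 53714 CPM (median 16837), which are encoded side by side.

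The change from D2 to D9 differed between TBI+ and sham rats by the interaction test in edgeR for miR-127-3p (−2.50, adjusted p = 0.00301), miR-129-5p (−4.28, adjusted p = 0.00511), miR-341 (−2.41, adjusted p = 0.00511), miR-133a-5p (−2.56, adjusted p = 0.00612) and miR-185-5p (−4.38, adjusted p = 0.0117). The sham D9 libraries held the fewest reads of any group by their median, and the count of 5 changed with the sham rats included.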

How the results depend on the processing

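The 106 calls in TBI+ (35.8% of them rises) stayed within 1.5 times that number under DESeq2, library-total and size-factor scaling, a low-count filter (83 of 271 tested), no replicate block in place of the paired fit (113), thinning (92), near-identical miRNAs counted once (98), rats 1 to 4 only (78), all 40 libraries (78), robust fitting (106) and limma-voom (91). Scaling to miR-28-3p gave 53 (20.8% rises) and thinning 22.8% rises. The hemolysis index as a covariate gave 20, rats 5 to 7 only 61, the libraries of the lowest number run only 70, and the library-number runs as a covariate 56. Leaving out 1 rat gave 61 to 121 calls, with 61 without rat 1 and 69 without rat 3. Of 39 named miRNAs that passed, 34 kept their direction in every alternative, and miR-133a-5p, miR-145-5p and both miR-129 3p entries (which share reads), these 4 only, passed in every one where they were tested. Reversals were miR-128-3p (0.43) and miR-205 (−0.41) in rats 5 to 7, and miR-16-5p (−0.085), miR-182 (0.79) and miR-93-5p (−0.31) with the hemolysis covariate. Their causes were not tested.

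The paired fit without the replicate block gave 23 calls in sham rats (main 11) and 10 for TBI+ minus sham (main 5). Leaving out 1 sham rat gave 0 to 2 calls in sham rats and 1 to 11 for TBI+ minus sham. That difference gave 2 calls with DESeq2, 6 thinned, and 0 with the filter or with the library-number runs. TBI+ minus TBI− gave 0 in every alternative. The log2 library total changed by −0.374 to 0.0637 when 1 rat was left out, with 0.0637 without rat 5. The change in detected miRNAs was −22.5 to −14.2 when 1 rat was left out, with p = 0.0312 without rat 7, and −15.6 after thinning (exact p = 0.0469). The hemolysis index rose by 1.23 in rats 1 to 4 (exact p = 0.125) and by 2.04 in rats 5 to 7 (exact p = 0.25), the smallest p these numbers of rats allow, and by 1.25 to 1.79 when 1 rat was left out. Changes of miRNAs near 3 reads per library were at the limit of this depth.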

Other observations

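The 2 arms of a hairpin often moved apart in size. Of 63 hairpins with both arms at a mean of at least 10 CPM in TBI+, 42 had arms of the same sign. Both arms passed the edgeR test in 6, each time in one direction, among them Mir129-1 and Mir129-2, whose reads cannot be told apart, and 1 arm passed in 21. Across these hairpins the changes of the arms correlated with r = 0.821 and rho = 0.456, a description over arms that share a precursor and libraries. miR-22-5p, the less abundant arm, fell by 1.27 ± 0.27 without overlap (median 173 and 67.0 CPM), while miR-22-3p, the most abundant miRNA in these plasmas, did not pass (−0.45). miR-92a-1-5p rose by 1.53 and miR-92a-3p, which 2 genes encode, was at 0.21. miR-10a-3p fell by 1.84 beside 0.57 for miR-10a-5p.

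Of the 106 miRNAs that passed, 34 were on none of the lists. The one with the lowest adjusted p was miR-328b-3p, which went from a median of 409 to 142 CPM without overlap (−1.53 ± 0.26, adjusted p = 2e-07). Other falls without overlap were the abundant miR-378b (7323 and 3947 CPM, −1.03) and miR-320-3p (3964 and 2002 CPM, −1.02). The rises among them included the insulinoma-linked miR-298-5p (27.5 and 57.6 CPM, 1.04) and both arms of miR-181c (0.72 each). Beyond the miRNAs that passed, miR-30a-5p was higher on D9 in 7 of 7 rats (0.46 ± 0.20, adjusted p = 0.0986). GC content and length of the mature sequence had weak correlations with the change across 241 miRNAs with a sequence (r = −0.142 and 0.13, rho = −0.195 and 0.107).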
